A study of Rattus norvegicus with 9 samples.

Results

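The 10 genes described here encode ligands, receptors and an inhibitor of the epidermal growth factor (EGF) family: 6 ligands (Areg, Ereg, Hbegf, Btc, Tgfa and Egf), 3 receptors (Egfr, Erbb2 and Erbb3) and Errfi1, an inhibitor of the receptors. They were chosen by gene symbol, with earlier results of these data known. All 10 were found among the 17145 genes of each deposited table. Total RNA was sequenced from the ileum, where the small intestine ends. The rats were Otsuka Long-Evans Tokushima fatty, an obese and diabetic strain without a functional receptor for the gut hormone cholecystokinin. Tissue was taken 1 month after surgery. The 3 groups, with 3 replicates each, were ileum after Roux-en-Y gastric bypass (RYGB) with FDG decreased, ileum after RYGB with FDG increased, and sham-operated ileum. In RYGB the stomach is reduced to a pouch that empties into the jejunum. FDG is taken as fluorodeoxyglucose, a radioactive glucose analogue, which the labels do not spell out. Neither the age of the rats nor whether each replicate was a separate animal is given in the sources used here, and the p-values therefore reflect the spread of these samples alone.

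The ligands are made as membrane proteins and are cut free by proteases at the cell surface. Areg (amphiregulin), Tgfa (transforming growth factor alpha) and Egf bind the receptor Egfr, while Ereg (epiregulin), Hbegf (heparin-binding EGF-like growth factor) and Btc (betacellulin) bind both Egfr and the related receptor ERBB4. Erbb2 binds no known ligand and acts as a partner, and Erbb3 binds neuregulins and has little kinase activity of its own. In the intestine this pathway is known for driving crypt cell growth and repair after injury. Errfi1, also called MIG6, is itself switched on by receptor signalling and blocks the receptor kinase as negative feedback.

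Promoter windows, the 250 bases before the gene start in RefSeq on build GRCr8, were matched for 8 of the 10 genes, with none for Ereg and Erbb3. Those of Areg and Errfi1 are shown because both genes averaged lower in FDG-decreased than in FDG-increased ileum, although the Areg groups overlapped. Both windows were also chosen for holding a TATAAA motif and at least the short core of a cyclic AMP response element (CRE) motif. Capitals mark the CRE letters TGACGTCA in Areg, its short core in Errfi1, and the TATAAA motif in each. The core is TGACG, which reads as CGTCA in Errfi1 because it lies on the opposite strand. The Areg window lies on the minus strand at chr14:17265642-17265891 and the Errfi1 window on the plus strand at chr5:166606591-166606840.
Areg: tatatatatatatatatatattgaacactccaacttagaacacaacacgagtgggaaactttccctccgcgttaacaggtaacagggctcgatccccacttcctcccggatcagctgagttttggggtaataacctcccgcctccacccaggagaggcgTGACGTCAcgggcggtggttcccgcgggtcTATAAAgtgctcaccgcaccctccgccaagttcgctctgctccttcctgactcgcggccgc
Errfi1: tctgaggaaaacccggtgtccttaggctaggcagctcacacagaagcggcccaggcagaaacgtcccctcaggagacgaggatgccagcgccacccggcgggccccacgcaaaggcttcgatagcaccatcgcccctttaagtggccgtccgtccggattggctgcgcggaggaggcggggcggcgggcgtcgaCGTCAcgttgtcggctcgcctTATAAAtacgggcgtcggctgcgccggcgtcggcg
Areg held the full TGACGTCA beginning 91 bases before the start, a motif found in 1.59% of 33469 rat windows of this length searched on both strands. The core TGACG, which the full motif contains on each strand, was in Areg, Errfi1 and Hbegf and in 18.2% of all windows. In Errfi1 it began 56 bases before the start, and in Hbegf 193 bases before it. TATAAA, searched on the gene strand, was in Areg and Errfi1 and in 8.06% of windows. It began 61 bases before the start in Areg and 35 bases before it in Errfi1. Both it and the core were in 1.05% of windows. Since the Areg and Errfi1 windows were picked for holding both motifs, this share does not measure how unusual they are. The AP-1 letters TGACTCA, searched on both strands and in 4.05% of windows, and the serum response element, in 1.5%, were in 0 of the 8 windows. A match describes letters and does not show that a factor binds there.

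Expression was given as FPKM, a level corrected for transcript length and for the size of the library, in 2 tables that were scaled separately, so each test stays within a table. One, called the RYGB table, holds FDG-decreased and FDG-increased ileum, and the other, the sham table, holds FDG-increased and sham ileum. FDG-increased columns 2 and 3 of the sham table are the same libraries as columns 1 and 2 of that group in the RYGB table, at 1.023 and 1.0204 times the value. The other FDG-increased column of each table occurs once, so the comparisons share 2 libraries and rest on 4 distinct FDG-increased libraries. The labels list 3 FDG-increased samples, so not all of these libraries can have a label, and which do is not settled. Pair numbers and FDG-increased lanes below take the column titles of the RYGB table as right. Read depth is unknown. Summed FPKM per library in the sham table was 611736 to 864511 in FDG-increased ileum, against 465697 to 569504 in sham ileum, without overlap. In the RYGB table it was 475536 to 827636 in FDG-decreased ileum, against 497325 to 847267 in FDG-increased ileum. Fabp6 and Slc10a2, which handle bile acids in the distal ileum, summed to 5422 to 18340 FPKM in FDG-decreased ileum and 7318 to 23060 FPKM in FDG-increased ileum of the RYGB table. In the sham table they summed to 16600 to 23530 FPKM in FDG-increased ileum, against 25.2 FPKM in sham replicate 1 and 8442 and 11470 FPKM in sham replicates 2 and 3. Sham replicate 1 thus holds little of the defining ileal signal.

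Areg, Ereg and Hbegf lay higher in all 3 FDG-increased libraries of the sham table than in any sham library. The remaining FDG-increased library, replicate 3 of the RYGB table, is not in this comparison. Scaled to the sham table, its Areg and Ereg were 2.78 and 9.28 FPKM, within the sham range, and its Hbegf was 11.7 FPKM, above it. Areg, the ligand with the lowest single value in sham ileum, held 17.7, 39.1 and 71.4 FPKM in FDG-increased ileum, against 4.24, 0.886 and 5.51 FPKM in sham ileum. Ereg held 35.8, 52.3 and 93.3 FPKM in FDG-increased ileum, against 4.04, 2.61 and 10.1 FPKM in sham ileum. For both ligands the highest FDG-increased library was the one numbered 3 and the lowest sham library was replicate 2. Hbegf held 15.9, 30.4 and 26.9 FPKM in FDG-increased ileum, against 5.54, 2.32 and 3.66 FPKM in sham ileum. Groups that did not overlap, with FDG-increased ileum higher, made up 10.7% of all 10801 genes tested. In whole tissue a difference in the number of cells of a type and one in RNA per cell cannot be told apart.

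**Figure D1:**
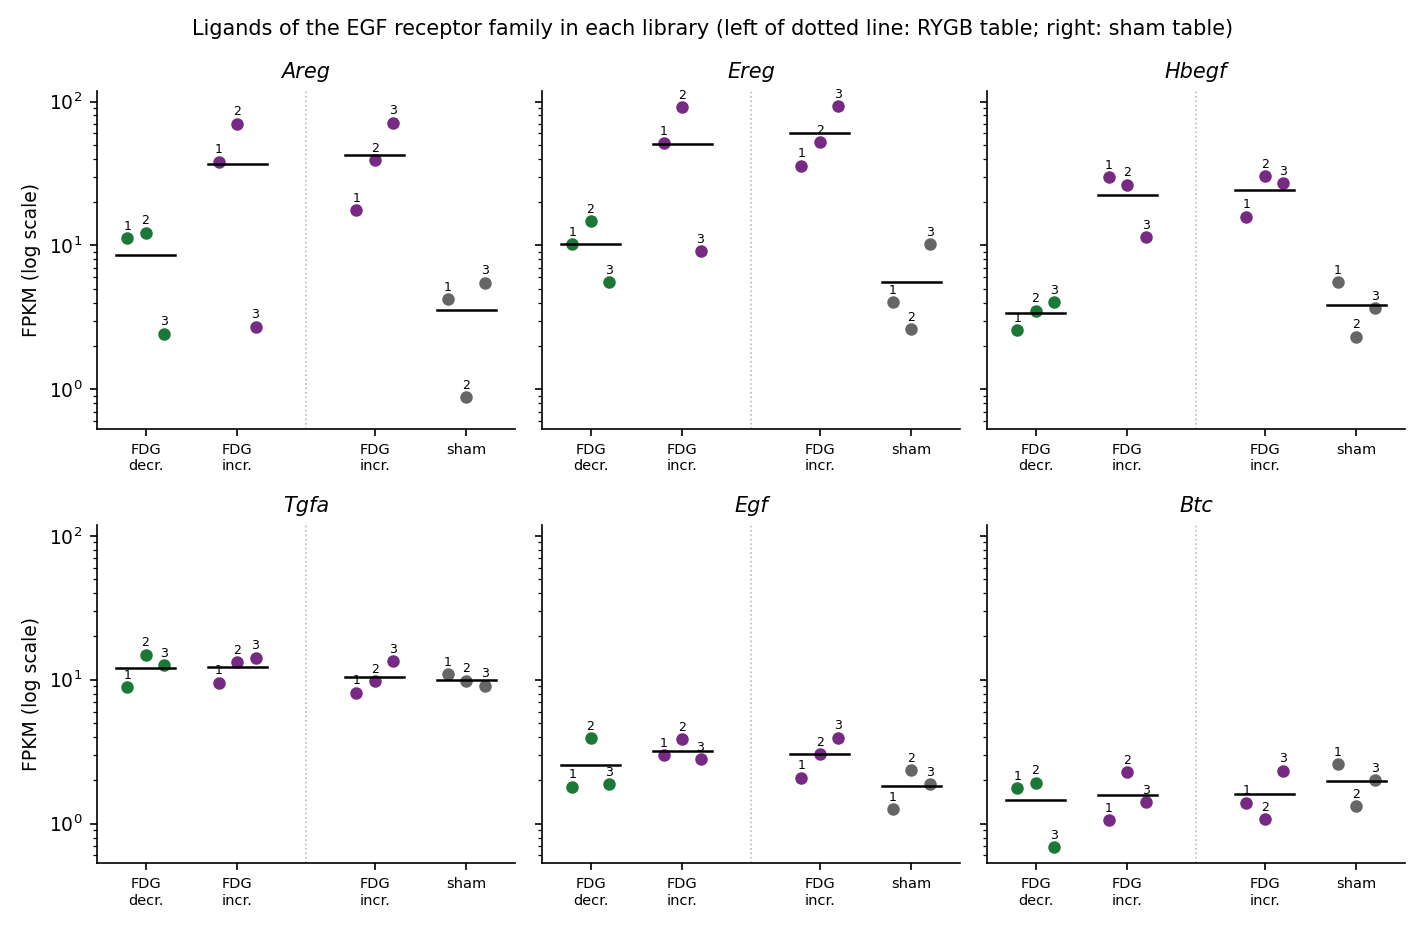
FPKM of the 6 ligands in each library on a log scale, with library numbers above the points and group means as bars. Left of the dotted line stand the FDG-decreased and FDG-increased columns of the RYGB table, right of it the FDG-increased and sham columns of the sham table. Areg, Ereg and Hbegf spread over wider ranges than the other ligands, and Areg reached from 0.886 to 71.4 FPKM in the sham table.

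On the log2(FPKM + 1) scale, which understates changes of low values, the difference between FDG-increased and sham ileum was 3.24 for Areg (SE 0.571, 95% interval 1.95 to 4.53). It was 3.28 for Ereg (SE 0.474, 95% interval 2.20 to 4.35) and 2.40 for Hbegf (SE 0.340, 95% interval 1.63 to 3.17). These stood at percentiles 99.88, 99.89 and 99.72 of the differences of all genes tested, whose median was 0.13. In limma with Benjamini-Hochberg adjustment over all genes, the adjusted p was 0.162 for Areg, 0.096 for Ereg and 0.096 for Hbegf. None of the 10 genes passed the threshold of 0.05, which 0.037% of all genes passed. At an unadjusted p under 0.05 in limma, 3 of the 6 ligands were higher, as were 6.15% of all genes.

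The other ligands showed smaller differences with intervals that include 0. Tgfa held 8.13, 9.74 and 13.5 FPKM in FDG-increased ileum, against 10.9, 9.84 and 9.09 FPKM in sham ileum, a log2 difference of 0.04 (95% interval -0.54 to 0.62). Tgfa, made by the intestinal epithelium, thus had FDG-increased values on both sides of the sham values. Egf held 2.09, 3.05 and 3.96 FPKM in FDG-increased ileum, against 1.26, 2.34 and 1.87 FPKM in sham ileum, a log2 difference of 0.50 (95% interval -0.10 to 1.11). Btc held 1.40, 1.08 and 2.33 FPKM in FDG-increased ileum, against 2.60, 1.31 and 2.0 FPKM in sham ileum, a log2 difference of -0.20 (95% interval -0.81 to 0.42). Limma adjusted p was 0.983 for Tgfa, 0.695 for Egf and 0.902 for Btc.

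Within RYGB ileum the same 3 ligands were lower in the FDG-decreased library of every same-numbered pair. Hbegf held 2.58, 3.53 and 4.05 FPKM in FDG-decreased ileum, against 29.7, 26.4 and 11.4 FPKM in FDG-increased ileum, and the groups did not overlap. Ereg held 10.2, 14.8 and 5.53 FPKM in FDG-decreased ileum, against 51.2, 91.4 and 9.08 FPKM in FDG-increased ileum. Areg held 11.2, 12.3 and 2.43 FPKM in FDG-decreased ileum, against 38.2, 70.0 and 2.72 FPKM in FDG-increased ileum. For Ereg and Areg the groups overlapped, since FDG-increased replicate 3 lay below FDG-decreased replicates 1 and 2. That FDG-increased library is absent from the sham table, and its Areg and Ereg lay within the sham range also after scaling to the sham table (2.78 and 9.28 FPKM). Its Hbegf of 11.4 FPKM was less than that of the other FDG-increased libraries and more than any FDG-decreased value.

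The log2 difference between FDG-decreased and FDG-increased ileum was -2.33 for Hbegf (SE 0.386), -1.80 for Ereg (SE 0.783) and -1.41 for Areg (SE 1.07). Within pairs 1, 2 and 3 it was -3.10, -2.60 and -1.30 for Hbegf. Ereg differed by -2.22, -2.55 and -0.63 within those pairs, and Areg by -1.68, -2.42 and -0.12. Pair 3 gave the smallest difference for each of these ligands. Leaving out FDG-increased replicate 3 gave unpaired differences of -2.68 for Areg and -2.73 for Ereg, and leaving out replicate 2 of that group gave -0.55 for Areg and -1.13 for Ereg. Areg differed by -0.78 when FDG-decreased replicate 3 was left out. Over all 10739 genes tested, 12.7% were lower in FDG-decreased ileum in each pair. Without the pair as a block, limma with Benjamini-Hochberg adjustment gave an adjusted p of 1 for each of the 3 and called 0 genes (0%), while 110 genes (1.02%) had an unadjusted p under 0.05. With the replicate number as a block, the limma adjusted p was 0.0354 for Hbegf, 0.244 for Ereg and 0.522 for Areg, and 1.14% of all genes were called, 0.689% as lower.

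**Figure D2:**
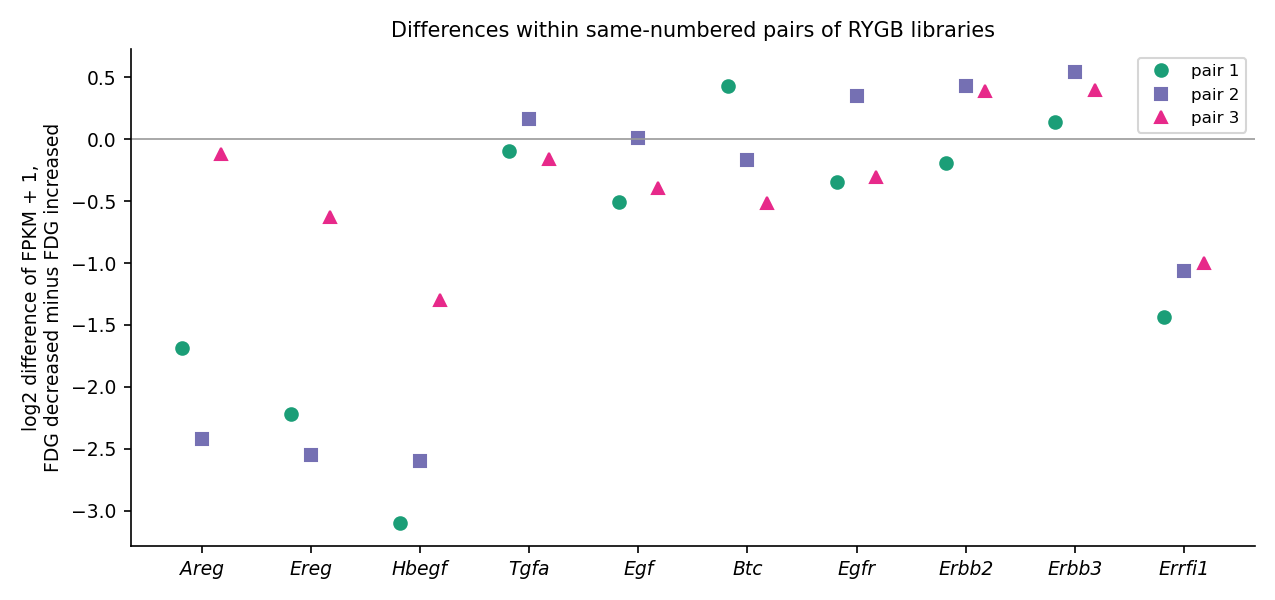
Log2 difference of FPKM + 1, FDG-decreased minus FDG-increased, for each of the 10 genes within the same-numbered pairs of RYGB libraries. Areg, Ereg, Hbegf and Errfi1 lie below 0 in all 3 pairs, with pair 3 nearest to 0, while Erbb3 lies above 0 in all 3.

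For Tgfa, Egf and Btc the intervals of the difference between the RYGB groups included 0. Tgfa held 8.84, 14.9 and 12.6 FPKM in FDG-decreased ileum, against 9.52, 13.2 and 14.2 FPKM in FDG-increased ileum, a log2 difference of -0.03 (95% interval -0.71 to 0.65). Egf held 1.80, 3.92 and 1.88 FPKM in FDG-decreased ileum, against 2.98, 3.88 and 2.79 FPKM in FDG-increased ileum, a log2 difference of -0.30 (95% interval -0.99 to 0.39). Btc, the ligand with the least transcript here, held 1.76, 1.92 and 0.683 FPKM in FDG-decreased ileum, against 1.05, 2.29 and 1.40 FPKM in FDG-increased ileum, a log2 difference of -0.09 (95% interval -0.81 to 0.64). For all 3 the groups overlapped, and limma gave an adjusted p of 1.

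FPKM is scaled to transcript length, so the levels of different ligands can be compared. Ereg was the highest ligand, followed by Areg, Hbegf and Tgfa, in all 3 FDG-increased columns of the sham table and in FDG-increased replicates 1 and 2 of the RYGB table, which include the shared libraries. Tgfa was the highest in FDG-decreased replicates 2 and 3, in FDG-increased replicate 3 of the RYGB table, and in sham replicates 1 and 2. The 6 ligands summed to 81.0, 136 and 211 FPKM in FDG-increased ileum of the sham table, against 28.6, 19.3 and 32.3 FPKM in sham ileum. Within RYGB ileum the sums were 36.4, 51.3 and 27.2 FPKM in FDG-decreased ileum, against 133, 207 and 41.6 FPKM in FDG-increased ileum. Areg and Ereg made up 66.0%, 67.4% and 77.9% of that sum in FDG-increased ileum of the sham table, against 29.0%, 18.1% and 48.5% in sham ileum. Their share overlapped between the RYGB groups, at 58.9%, 52.7% and 29.3% in FDG-decreased ileum, against 67.4%, 77.9% and 28.3% in FDG-increased ileum. Tgfa, Egf and Btc together stayed between 11.6 and 20.8 FPKM in all 12 columns of both tables, so the libraries with a high sum were those with much Areg, Ereg and Hbegf.

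**Figure D3:**
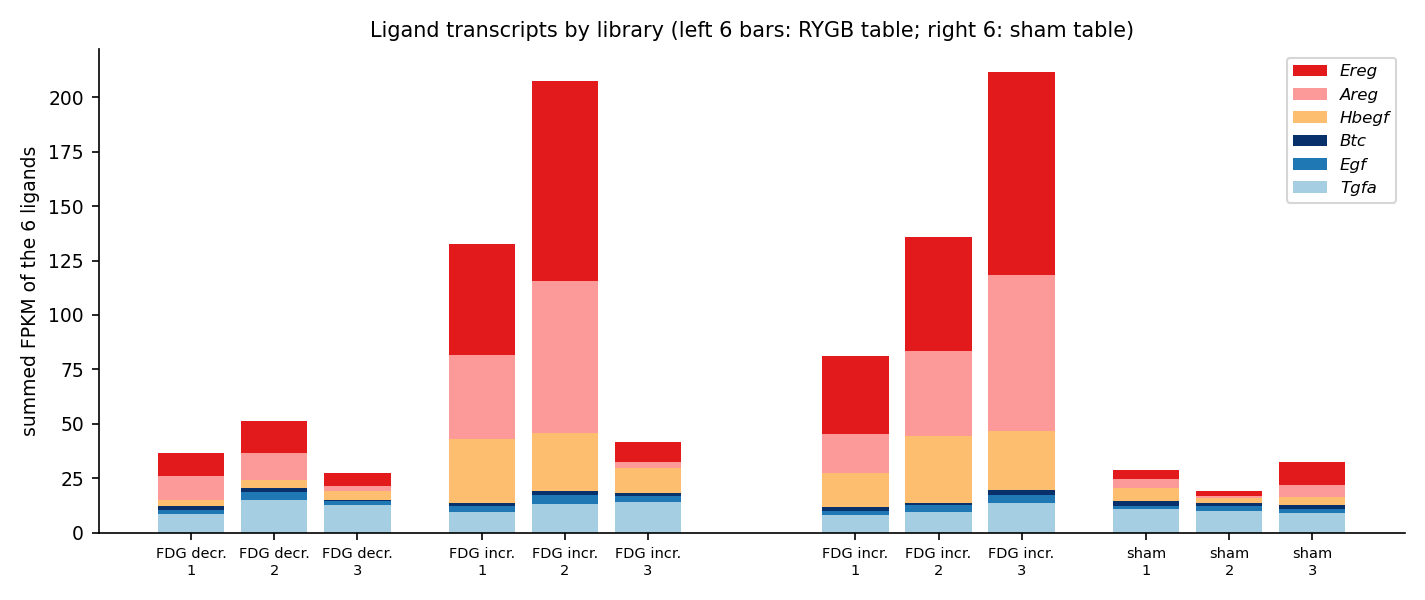
Summed FPKM of the 6 ligands in each library, stacked by ligand, with the RYGB table on the left and the sham table on the right. The sum is 211 FPKM in FDG-increased column 3 of the sham table, and the blue part (Tgfa, Egf and Btc) stays between 11.6 and 20.8 FPKM in every bar.

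The receptors overlapped between the groups in both tables. Egfr, the receptor for the ligands above, held 7.77, 8.88 and 10.1 FPKM in FDG-increased ileum, against 8.56, 8.87 and 10.1 FPKM in sham ileum. Its log2 difference was -0.04 (95% interval -0.56 to 0.48). Erbb2 held 64.1, 63.1 and 48.4 FPKM in FDG-increased ileum, against 64.9, 46.6 and 67.8 FPKM in sham ileum, a log2 difference of -0.02 (95% interval -0.71 to 0.67). Erbb3 held 78.3, 79.3 and 57.5 FPKM in FDG-increased ileum, against 78.5, 52.2 and 60.9 FPKM in sham ileum, a log2 difference of 0.17 (95% interval -0.54 to 0.88). Limma adjusted p was 0.982 for Egfr, 0.992 for Erbb2 and 0.927 for Erbb3. The intervals leave room for differences of up to 0.88 on the log2 scale, so the receptors are not shown to be alike in these groups.

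Between the RYGB groups Egfr held 6.61, 12.9 and 8.40 FPKM in FDG-decreased ileum, against 8.68, 9.90 and 10.6 FPKM in FDG-increased ileum, a log2 difference of -0.10 (95% interval -0.78 to 0.58). Erbb2 held 53.9, 64.2 and 44.9 FPKM in FDG-decreased ileum, against 61.7, 47.4 and 34.0 FPKM in FDG-increased ileum, a log2 difference of 0.21 (95% interval -0.59 to 1.01). Both receptors were higher in the FDG-decreased library of some pairs and lower in others. Erbb3 held 85.4, 82.6 and 47.1 FPKM in FDG-decreased ileum, against 77.5, 56.3 and 35.6 FPKM in FDG-increased ileum, a log2 difference of 0.36 (95% interval -0.61 to 1.33). Erbb3 was thus the receptor with a higher FDG-decreased value in all 3 pairs, by 0.14, 0.54 and 0.39 on the log2 scale, although limma gave an adjusted p of 1, and 0.401 with the replicate number as a block. The share of all genes that were higher in every pair is not given here, so this pattern is not shown to be unusual. Erbb3 was the highest receptor and Egfr the lowest in 11 of the 12 columns; in sham replicate 3 Erbb2 was the highest. The ratio of summed ligands to summed receptors was 0.539, 0.897 and 1.82 in FDG-increased ileum of the sham table, against 0.188, 0.179 and 0.233 in sham ileum. Between the RYGB groups it was 0.249, 0.322 and 0.271 in FDG-decreased ileum, against 0.897, 1.82 and 0.519 in FDG-increased ileum. This ratio did not overlap between the groups of either table, and no share over all genes stands beside it. Most of the receptor sum was Erbb2 and Erbb3, so the ratio is not a balance of the ligands with Egfr. In the RYGB table the ligand sums themselves overlapped, at 51.3 FPKM in FDG-decreased replicate 2 and 41.6 FPKM in FDG-increased replicate 3. That FDG-increased library had the lowest receptor sum, 80.2 FPKM.

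**Figure D4:**
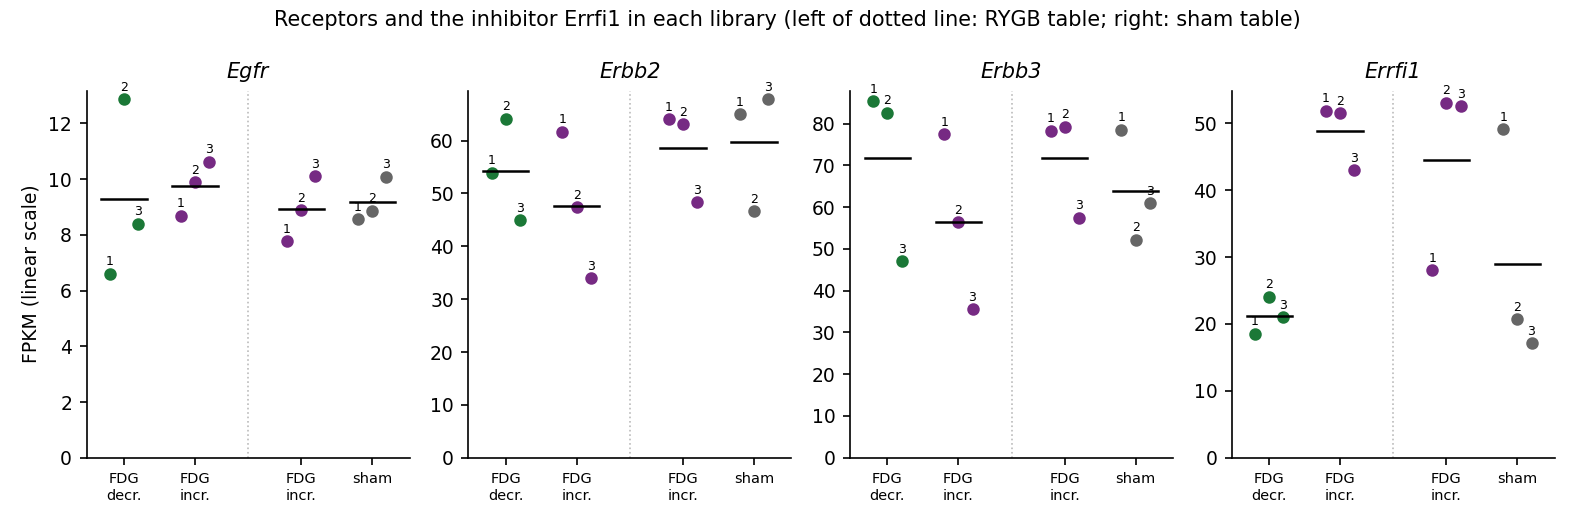
FPKM of Egfr, Erbb2, Erbb3 and Errfi1 in each library on linear scales that start at 0, with library numbers above the points and group means as bars. The receptors overlap between groups in both tables, while Errfi1 lies between 18.5 and 24.1 FPKM in FDG-decreased ileum and between 43.0 and 51.9 FPKM in FDG-increased ileum of the RYGB table.

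Errfi1 was lower in FDG-decreased than in FDG-increased ileum, with groups that did not overlap. It held 18.5, 24.1 and 21.0 FPKM in FDG-decreased ileum, against 51.9, 51.5 and 43.0 FPKM in FDG-increased ileum. Its log2 difference was -1.17 (SE 0.277, 95% interval -1.81 to -0.52), with -1.44, -1.06 and -1.0 within pairs 1, 2 and 3. Errfi1 and Hbegf were the members whose RYGB groups did not overlap, with FDG-decreased ileum lower, as for 1.26% of all genes. Limma without the block gave Errfi1 an adjusted p of 1. With the replicate number as a block Errfi1 fell (SE 0.145, limma adjusted p = 0.0045). Errfi1 and Hbegf were the 2 of 10 members called by that fit, where 1.14% of all genes were called. The blocked call of Errfi1 was lost without pair 1 (limma adjusted p = 0.0807) and that of Hbegf without pair 2 (limma adjusted p = 0.615), in fits with a single residual degree of freedom. Pairs 1 and 2 each came from 1 lane, lanes 7 and 4, and pair 3 from lanes 5 and 4, so in the first pairs lane and pair cannot be told apart.

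Against sham ileum Errfi1 gave no such separation. It held 28.0, 53.1 and 52.5 FPKM in FDG-increased ileum, against 49.1, 20.7 and 17.1 FPKM in sham ileum, a log2 difference of 0.70 (95% interval -0.30 to 1.70, limma adjusted p = 0.749). The high sham value was that of replicate 1, the library with 25.2 FPKM of distal ileal markers. Without it the log2 difference was 1.14 and the limma adjusted p 0.502, while without sham replicate 3 the difference was 0.41. Leaving out any other single library gave 0.54 to 0.99. Without the same library Areg, Ereg and Hbegf differed by 3.43, 3.17 and 2.64. All 3 sham libraries came from lane 7, and in lane 7 alone, with 1 FDG-increased library, the differences were 3.32 for Areg, 3.18 for Ereg, 2.75 for Hbegf and 1.0 for Errfi1. The lane of FDG-increased column 1 of the sham table is not known.

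**Figure D5:**
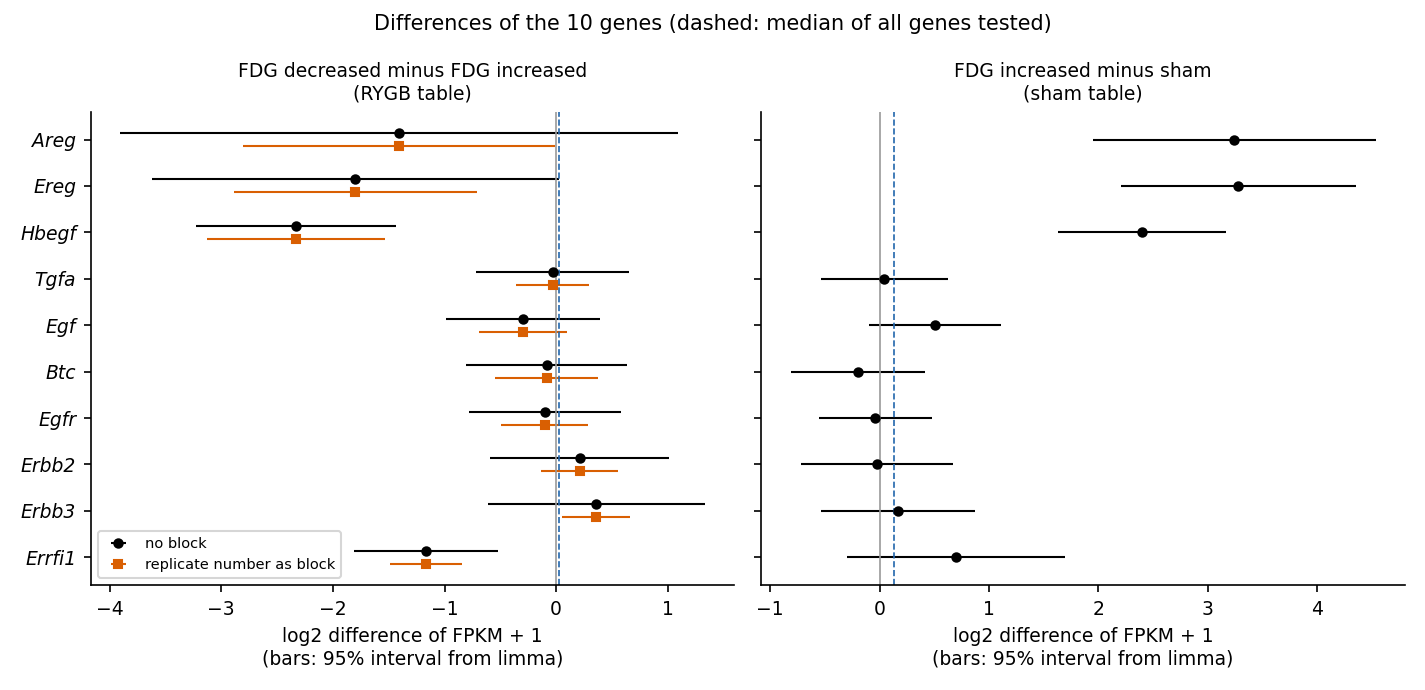
Log2 differences of the 10 genes with 95% intervals from limma, FDG-decreased minus FDG-increased on the left and FDG-increased minus sham on the right. Squares in the left panel are from the fit with the replicate number as a block, and the dashed line is the median of all genes tested. Areg, Ereg and Hbegf stand apart from the other ligands and the receptors in the right panel, at 3.24, 3.28 and 2.40.

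FDG-decreased and sham ileum were measured in different tables, and their values are set side by side without a test, with the RYGB table multiplied by 1.0217. Hbegf stood at 2.64, 3.60 and 4.14 FPKM in FDG-decreased ileum and 5.54, 2.32 and 3.66 FPKM in sham ileum. Ereg stood at 10.4, 15.1 and 5.65 FPKM in FDG-decreased ileum and 4.04, 2.61 and 10.1 FPKM in sham ileum. Areg stood at 11.5, 12.6 and 2.49 FPKM in FDG-decreased ileum and 4.24, 0.886 and 5.51 FPKM in sham ileum. Errfi1 stood at 18.9, 24.6 and 21.4 FPKM in FDG-decreased ileum and 49.1, 20.7 and 17.1 FPKM in sham ileum. The ranges of these 4 genes overlapped, and for Areg and Ereg FDG-decreased replicates 1 and 2 lay above every sham library.

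Of the other EGF family genes listed, 4 of 6 were in the tables. Nrg1, a neuregulin that binds Erbb3, held 7.70 to 18.3 FPKM in FDG-increased ileum, against 5.65 to 13.4 FPKM in sham ileum, a log2 difference of 0.71 (limma adjusted p = 0.711). Within RYGB ileum it held 10.2 to 10.9 FPKM in FDG-decreased ileum, against 10.6 to 17.9 FPKM in FDG-increased ileum, a log2 difference of -0.43 (limma adjusted p = 1). Erbb4, the fourth receptor, was below 0.05 FPKM in every library. Nrg2 averaged at least 1 FPKM in the sham table alone, where it differed by -0.14. Nrg4 was under that level in both.

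The proteases and helpers that release the ligands, 7 tested of 8 listed, had 0 called by limma in either table. Rhbdl2, a rhomboid protease of the membrane, had the greatest difference, with 42.9 to 86.6 FPKM in FDG-increased ileum, against 13.0 to 37.0 FPKM in sham ileum, and a log2 difference of 1.22 (limma adjusted p = 0.596). Adam17, a main shedding protease for several of these ligands, differed by 0.30, and Rhbdf1, which helps it to mature, by 0.35. Between FDG-decreased and FDG-increased ileum these 3 differed by -0.22 for Rhbdl2, 0.03 for Adam17 and -0.15 for Rhbdf1. Adam15, also a membrane protease, differed by -0.11 there.

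The chain that carries the receptor signal, 22 tested of 23 listed adaptors and kinases, had 0 called by limma in either table. Its median log2 difference was 0.11 between FDG-increased and sham ileum, where all genes had 0.13. Between FDG-decreased and FDG-increased ileum its median was 0.01, where all genes had 0.02. Plcg1, a phospholipase bound by the active receptor, held 11.4 to 13.9 FPKM in FDG-increased ileum, against 16.7 to 22.4 FPKM in sham ileum, with a log2 difference of -0.62 (limma adjusted p = 0.612). Gab1, an adaptor, differed by 0.38 in that comparison. Between the RYGB groups the greatest differences were 0.18 for the adaptor Gab2, 0.16 for the kinase subunit Pik3r1 and 0.13 for Plcg1.

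Other feedback regulators of the pathway had 0 called by limma against sham ileum, where 13 of 17 tested lay higher, with a median of 0.28. Of all genes 64.7% lay higher there. Their leading members were the phosphatases Dusp1, Dusp5 and Dusp6, which switch off MAP kinases. Dusp1 stood at 67.5 to 203 FPKM in FDG-increased ileum, against 21.8 to 40.2 FPKM in sham ileum, a log2 difference of 2.0 (limma adjusted p = 0.308). Dusp5 differed by 1.99 and Dusp6 by 1.18 (limma adjusted p = 0.439 and 0.562). Between the RYGB groups Dusp1 stood at 8.74 to 34.6 FPKM in FDG-decreased ileum, against 17.6 to 152 FPKM in FDG-increased ileum, a log2 difference of -1.63. With the replicate number as a block Dusp1 was the 1 of 16 tested that was called (limma adjusted p = 0.00933), where 1.14% of all genes were called, beside 0.0731 for Dusp5 and 0.0663 for Dusp6. The blocked call of Dusp1 was lost without pair 1 and without pair 2. Dusp5 and Dusp6 differed by -0.84 and -0.70 between the RYGB groups.

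Early target genes, which receptor signalling among other stimuli switches on, had 14 tested of 15 listed. Like the other background lists, this one was chosen with earlier results of these data known. Its counts beside the shares of all genes are therefore descriptive and no independent support. Of the 14 tested, 13 lay higher in FDG-increased than in sham ileum with a median of 1.57, where 64.7% of all genes lay higher. Limma called 2 of them, Atf3 and Fosb, where 0.037% of all genes were called. Atf3 rose by 3.80 and Fosb by 3.44 on the log2 scale (limma adjusted p = 0.0306 for each). Both calls were lost without sham replicate 1 or 2, without FDG-increased column 1 or 2, with no filter on low values and with quantile normalization, and that of Fosb also with a pseudocount of 0.1 or at the same median. Without FDG-increased column 3 limma called 6 of the 14. Between FDG-decreased and FDG-increased ileum 13 of 14 lay lower, with a median of -1.09, where 44.8% of all genes lay lower. The same 13 genes were lower in all 3 pairs, as were 12.7% of all genes. Limma called 0 of the 14 without the replicate number as a block (0% of all genes) and 9 with it, all lower (0.689% of all genes). The blocked fit called 6, 10 and 12 without pairs 1, 2 and 3. There Atf3, Fosb and Fos, all transcription factors, differed by -3.51, -3.44 and -2.42.

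Most marker lists had sums that overlapped between the groups of each table. Those without overlap in the sham table were macrophage and dendritic, goblet, fat cell, upper intestinal and distal ileal markers. The distal ileal sums are given above, and they and the upper intestinal markers mark a region rather than a cell type. Macrophage and dendritic markers, all 3 found, summed in the sham table to 55.3 to 76.1 FPKM in FDG-increased ileum, against 25.9 to 36.0 FPKM in sham ileum. Goblet markers, 2 of 3 found, summed to 4007 to 6293 FPKM in FDG-increased ileum, against 1301 to 3294 FPKM in sham ileum. Fat cell markers, 3 of 3 found, summed to 8.58 to 21.6 FPKM in FDG-increased ileum, against 22.5 to 112 FPKM in sham ileum. The upper intestinal markers, 3 of 3 found, summed to 0.737 to 3.69 FPKM in FDG-increased ileum, against 394 FPKM in sham replicate 1 and 29.1 and 4.10 FPKM in sham replicates 2 and 3. Within RYGB ileum those upper intestinal markers summed to 12.3 to 40.7 FPKM in FDG-decreased ileum, against 0.720 to 2.89 FPKM in FDG-increased ileum, and no other marker list had sums that did not overlap there. Epithelial markers, 5 of 5 found, summed to 1685 to 3050 FPKM in FDG-decreased ileum, against 1695 to 3657 FPKM in FDG-increased ileum. In the sham table they summed to 2435 to 3731 FPKM in FDG-increased ileum, against 1658 to 3014 FPKM in sham ileum. Paneth cell markers, 3 of 3 found, summed to 2060 to 7383 FPKM in FDG-decreased and 2056 to 7501 FPKM in FDG-increased ileum. Their sums in the sham table were 3032 to 7654 FPKM in FDG-increased ileum, against 1705 to 3669 FPKM in sham ileum. Of the Paneth cell markers, Defa5 was at 0 in every library, so their sums are those of Lyz2 and Mmp7. A sum of FPKM can be set by the most abundant gene of its list. Single markers are not given here, so it is not shown whether those of a list differed alike. The part of all these marker lists in the ligand and Errfi1 differences was not tested.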

How the data were processed

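Total RNA libraries were made with a stranded kit that depletes ribosomal RNA, per the labels' protocols. The submitters' processing notes list bcl2fastq 1.8.4, STAR 2.6.0a, Cufflinks 2.2.1, Cuffdiff and DESeq2 1.24.0, with no settings, and the human build hg19, although the symbols are those of rat. The deposited FPKM values have no unit in their header; the unit is read from the values and from the listed tools. The authors scaled each table separately.

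Samples were grouped by title. In the sham table the columns headed FDG-increased count as members of that group. The 25 symbols turned into dates were left out. The scale of analysis was log2(FPKM + 1). Genes averaging 1 FPKM or more were tested, all 10 members among them in both tables, by limma 3.58.1 in R 4.3.3 (trend and robust variances), Benjamini-Hochberg adjustment over all genes, and a threshold of 0.05. The fit without a block was checked on simulated data with independent noise of the same size for every gene. That check does not cover the blocked fit or the wider spread of Areg, Ereg and Hbegf. Alternatives changed the pseudocount, filter, scaling, variance model, replicate block and libraries.

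Libraries of the same number shared deviations from group means in the RYGB table (correlations across genes 0.85, 0.76 and 0.77), so blocked values are given beside the others. The pairing comes from the numbers in the titles, which do not say what they share. In the sham table the same-numbered correlations were 0.35, -0.50 and -0.25.

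Members and background lists were chosen with earlier results of these data known. All members are named; of each background list, the genes past the threshold and up to 3 with the greatest difference in each comparison, with Nrg4, Erbb4 and, in the RYGB table, Adam17 added after their values were seen. A gene of the signalling chain that this rule names is not reported here.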

Additional observations from a re-analysis of the deposited data

How the results depend on the processing

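Against sham ileum, limma called 4 genes of all tested, 1 with a pseudocount of 0.1, 0 with no filter, 1 with libraries shifted to the same median, 0 with quantile normalization and 0 to 13 without single libraries. At an unadjusted p under 0.05 limma divided 664 genes higher and 183 lower, or 528 and 368 at the same median. The authors' scaling left a median of 0.13 over all genes. With the replicate block, on column numbers that disagree between the tables, 39 genes and 3 members (Areg, Ereg and Hbegf) were called; leaving out single libraries called 0 to 1 member, Ereg without sham replicate 3 (limma adjusted p = 0.0478). In the RYGB table the replicate block called 122 genes and 2 members, single libraries left out 0 to 1 gene, and the block without 1 pair 39, 370 and 345 genes (leaving out pairs 1, 2 and 3) and 1 to 4 members; limma then rests on 1 residual degree of freedom.

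Areg, Ereg, Hbegf and Errfi1 kept their direction in all alternatives run, though not their size. Against sham ileum they ranged from 2.70 to 3.75, 2.92 to 3.74, 2.15 to 2.75 and 0.41 to 1.14, in that order, and between RYGB groups from -2.68 to -0.55, -2.73 to -1.13, -2.85 to -1.95 and -1.26 to -1.03. Differences near 0 changed sign. Against sham ileum these were Erbb3 with quantile normalization (-0.14), Tgfa at the same median (-0.086), with quantile normalization (-0.044) and in lane 7 (-0.024), and Erbb2 in lane 7 (0.10). Without single libraries Egfr ranged from -0.13 to 0.045, Erbb2 from -0.19 to 0.11 and Tgfa from -0.14 to 0.19. Between RYGB groups, lane as a block gave 0.21 for Btc, 0.023 for Egfr and 0.022 for Tgfa, and the replicate block without a pair 0.13 for Btc, 0.020 for Egfr, and 4.69e-05 and 0.032 for Tgfa. Without single libraries Btc ranged from -0.24 to 0.17, Egfr from -0.34 to 0.093, Erbb2 from -0.0087 to 0.41 and Tgfa from -0.19 to 0.16. The cause of these changes was not tested. Depth is unknown, so counting error cannot be separated from the spread between samples.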

Other observations

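The genes whose pattern over the 6 libraries of a table was nearest to a member were found by root mean square distance between log2(FPKM + 1) values centred on each gene's mean, a measure that favours genes of like spread and gives no test. In the sham table Ereg was the nearest of 10800 other genes to Areg and Areg the nearest to Ereg, at 0.365. The nearest genes outside the family to Ereg were Plau, the protease urokinase, at 0.402, Rgs1, a regulator of G-protein signalling, at 0.452, and Napsa, an aspartic protease, at 0.502. For Areg they were Zfand2a at 0.549, Fosb at 0.621 and Plau at 0.657. Hbegf was nearest to Zfand2a at 0.203, Ppy, the hormone pancreatic polypeptide, at 0.345 and Acta1, a muscle actin, at 0.365. For Errfi1 they were LOC500959 at 0.154, Slc35g1 at 0.177 and Cideb at 0.189.

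In the RYGB table Ereg was nearest to Ctgf, a connective tissue growth factor, at 0.153, then Plau at 0.226 and Ptgs2, which makes prostaglandins, at 0.265. Areg was nearest to Ptgs2 at 0.345, Ccl2, which attracts monocytes, at 0.382 and Plau at 0.465. Hbegf was nearest to Apold1 at 0.349, the nuclear receptor Nr4a3 at 0.440 and Trib1 at 0.475, and Errfi1 to B3gnt7 at 0.188, Trim15 at 0.204 and Sertad1 at 0.267. Among members, Ereg took place 4 of 10738 genes by distance from Areg, and Areg place 12 by distance from Ereg. Errfi1 took place 22 by distance from Hbegf, but Hbegf place 4336 by distance from Errfi1. Areg took place 4370 from Hbegf and 10628 from Errfi1, and in the sham table Hbegf took place 9699 of 10800 from Errfi1. The tables share 2 libraries, so their neighbours are not independent of each other.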
